A study of Mus musculus with 4 samples.

Results

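The 8 genes described here encode core subunits of the Polycomb repressive complexes, and they were listed by name: Ezh2, Ezh1, Suz12 and Eed for PRC2, and Rybp, Yaf2, Ring1 and Rnf2 for PRC1. They are 8 of 49943 genes of the RefSeq annotation of GRCm38.p6, the build mm10, and 8 of its 21887 protein-coding genes. Binding of an HA-tagged human WDR5 (HA-hWDR5) was measured by ChIP-seq in mouse embryoid bodies at day 6, grown by the SFEBq method, a serum-free aggregation culture used for neural and retinal differentiation. The embryonic stem cells of both groups carried the Rx:GFP knock-in reporter and a Wdr5 knockout (Wdr5 KO), and the cultures were given 2% Matrigel at day 1 and doxycycline to induce HA-hWDR5. They differed in the doxycycline time, T12h or T48h, hours whose zero point the labels leave unstated. Each rescue time had 1 ChIP library and 1 input library, so no test between the times could be made and every difference below is one between 2 libraries. The tagged protein was the human one and was made from an inducible transgene, and peak lists hold no expression with which to check the labelled cell type.

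PRC2 methylates lysine 27 of histone H3. EZH2 or EZH1 is its catalytic subunit, SUZ12 its scaffold, and EED binds the methylated lysine. PRC1 ubiquitinates histone H2A through RING1 or RNF2 (also called RING1B), and RYBP or YAF2 replaces the CBX subunits in the variant complexes. WDR5 is best known as an adaptor of the MLL and COMPASS methyltransferases of lysine 4 of histone H3, and it has also been found in the variant PRC1 complex that holds E2F6 and MGA.

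A gene was counted as having a peak when the summit lay inside it or within 1 kb of either end. At T12h, 3 of the 8 genes had a peak (37.5%): Ezh2 with 3 peaks, and Suz12 and Rybp with 1 each. At T48h only Ezh2 had any (12.5% of the 8 genes), with 2 peaks. Over all protein-coding genes the share was 4.25% at T12h and 1.69% at T48h, and among those as long as the members (3.89 to 65.0 kb) it was 4.30% and 1.66%. With 8 members each gene is worth 12.5 percentage points, so these shares are a description. A summit within 1 kb of a gene end was found at T12h for the same 3 of 8 genes (37.5%), against 2.93% of protein-coding genes. At T48h no member had one, against 1.06%. Such end summits were common among genes with a T12h peak, being found in 642 of 930 protein-coding genes. Ezh1, Eed, Yaf2, Ring1 and Rnf2 had no peak at either time.

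The upstream sequences of Ezh2 and Suz12 are shown because a T12h peak lay on the former and just before the latter, and that of Ezh1 because it is the paralog of Ezh2 and had no peak. Each is the RefSeq sequence (GRCm38.p6) of the 250 bases before the annotated start, 5′ to 3′ on the gene's strand, with coordinates chr6:47595031-47595280 (minus strand), chr11:79992856-79993105 (plus strand) and chr11:101226464-101226713 (minus strand). Ezh2 as annotated reaches to chr6:47595270, beyond the start used here, so most of its printed bases lie inside the gene. In Ezh2 the capitals mark the 180 bases under the T12h peak, and in Suz12 the letters TTCCCGC, the reverse complement of the E2F motif GCGGGAA. Ezh1 has no capitals because it has no peak and no match to that motif.
Ezh2: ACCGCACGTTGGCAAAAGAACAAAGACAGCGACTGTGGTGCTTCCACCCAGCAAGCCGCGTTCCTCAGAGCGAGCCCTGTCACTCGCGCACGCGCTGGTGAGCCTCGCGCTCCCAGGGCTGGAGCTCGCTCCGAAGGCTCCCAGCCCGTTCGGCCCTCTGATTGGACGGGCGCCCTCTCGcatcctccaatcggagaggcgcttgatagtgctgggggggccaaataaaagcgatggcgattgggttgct
Suz12: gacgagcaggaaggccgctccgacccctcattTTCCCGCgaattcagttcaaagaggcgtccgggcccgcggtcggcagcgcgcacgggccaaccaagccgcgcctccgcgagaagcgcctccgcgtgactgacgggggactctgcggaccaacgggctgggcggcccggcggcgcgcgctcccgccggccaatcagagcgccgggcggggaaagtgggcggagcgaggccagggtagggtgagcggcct
Ezh1: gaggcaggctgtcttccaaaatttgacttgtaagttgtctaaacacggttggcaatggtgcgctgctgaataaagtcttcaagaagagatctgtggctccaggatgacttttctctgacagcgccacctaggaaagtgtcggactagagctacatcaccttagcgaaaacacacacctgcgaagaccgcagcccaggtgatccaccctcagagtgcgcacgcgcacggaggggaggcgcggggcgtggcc

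RefSeq promoter windows, from 250 bases before to 50 bases after the start, were found for 6 of the 8 members. The Ezh2 window held 31 CpG dinucleotides and that of Suz12 41, against a median of 7 over 32851 promoters. The other members with a window and no peak were CpG-rich as well, with 37 CpG in Ring1, 30 in Rnf2, 23 in Ezh1 and 17 in Eed. Among these 6 windows the CpG number of Ring1 lay between those of Ezh2 and Suz12. Rybp had no window, and the Suz12 peak lay outside its window. Whether CpG number goes with a peak was not tested. Of 5 motifs searched on both strands, the E2F letters GCGGGAA were found in Suz12 alone among these 6 windows, and in 4.60% of all promoters. The NF-Y letters CCAAT, held by 37.4% of promoters, occurred 3 times in Ezh2 and in Suz12 and Eed once each. The GC box GGGCGG, held by 35.7%, occurred 3 times in Suz12 and in Ring1 and was also found in Rnf2. The E-box CACGTG (7.15% of promoters) and the ETS letters CCGGAAG (8.86%) were in none of the 6.

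Among the PRC2 genes, Ezh2 carried the peak nearest to a start site. At T12h this peak (chr6:47595101-47595361) held 28 tags in 261 bp, with a deposited fold of 9.92 over the local background and a score of 100.31. That score is -10 times the log10 of the p-value MACS gave, so higher scores are stronger peaks. Its summit lay at -202 bp from the RefSeq start of the promoter window. The annotated gene reaches beyond that start, and the summit was 38 bp inside its upper end. It was also 23 bp inside the lncRNA gene F830010H11Rik, which overlaps that end of Ezh2, so the peak belongs to either gene by position. It ranked 439 of 1197 T12h peaks by score, and no T48h peak overlapped it.

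Suz12, the scaffold gene, had a weaker T12h peak upstream of its start. The peak (chr11:79992459-79992744) held 27 tags in 286 bp, with a fold of 6.34 and a score of 61.36, and ranked 818 of 1197. Its summit lay at -523 bp from the start, and the peak ended before the printed sequence begins. The E2F letters at -218 bp were thus outside it. No other annotated gene lay within 1 kb of that summit.

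Rybp, which encodes a variant PRC1 subunit, had the highest-ranking peak of the 8 genes. At T12h this peak (chr6:100287658-100288086) held 42 tags in 429 bp, with a fold of 9.82 and a score of 148.76, rank 301 of 1197. Its summit lay 384 bp beyond the upper end of the gene, and no other gene lay within 1 kb. The score was above the T12h median of 77.4, as was that of the Ezh2 start-site peak, while Suz12 was below it.

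**Figure D1:**
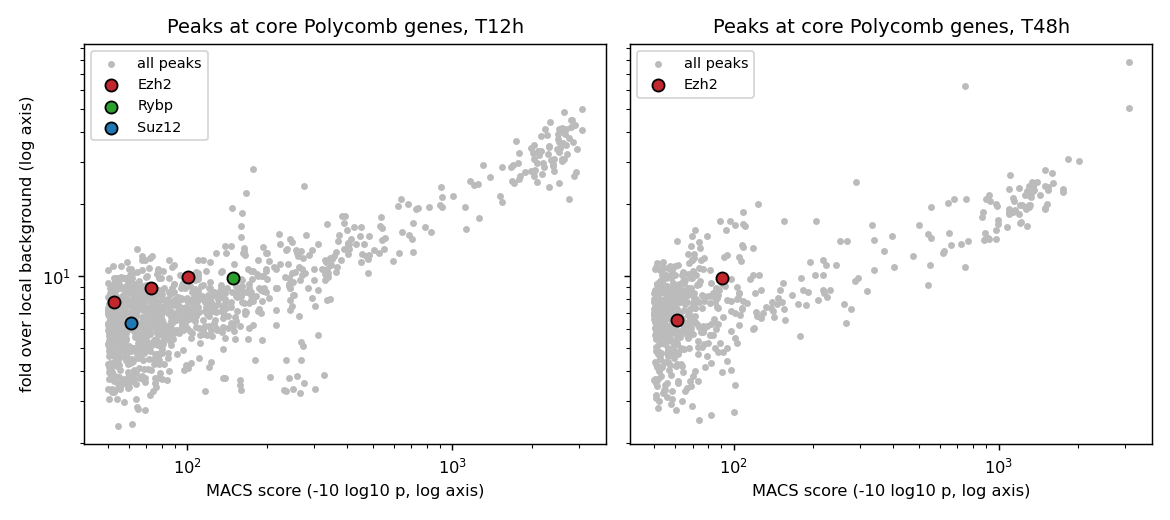
Fold over local background against MACS score for all T12h peaks (left, 1197) and T48h peaks (right, 660), both axes logarithmic, with peaks at core Polycomb genes in colour. The member peaks have folds from 6.34 to 9.92 at T12h, and 6.55 and 9.83 at T48h. These lie on both sides of the list medians of 7.31 and 7.66, and far below the highest folds of 49.69 and 78.16.

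The remaining Ezh2 peaks lay deep inside the gene, towards its 3′ end. At T12h a peak at chr6:47540668-47540906 held 19 tags in 239 bp (fold 7.8, score 52.99), and a second at chr6:47541808-47541974 held 19 tags in 167 bp (fold 8.93, score 72.74). At T48h a peak at chr6:47540657-47540875 held 21 tags in 219 bp (fold 6.55, score 61.05), and another at chr6:47544428-47544626 held 25 tags in 199 bp (fold 9.83, score 90.46). These 4 peaks marked 3 sites within 3.97 kb, between 50.5 and 54.2 kb downstream of the start site. Exon positions were not used here.

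Of the 5 member peaks of T12h, 1 overlapped a T48h peak, the Ezh2 peak nearest to the 3′ end. The share of all 1197 T12h peaks that overlapped a T48h peak is not set beside it here. The count is therefore a description and no trait of these genes. The overlap was 208 bp and the summits were 23 bp apart. Scaled to filtered ChIP tags, it held 3.42 tags per 10000000 at T12h (95% Poisson interval 2.06 to 5.34) and 3.13 at T48h (1.94 to 4.78), and these intervals overlap. It was among the weakest entries at T12h, with rank 1057 of 1197 and a deposited false discovery rate of 10.12%, and stood at rank 374 of 660 with 9.89% at T48h. The median rate of all peaks was 3% at T12h and 9.625% at T48h. The other Ezh2 site of T48h had rank 184 of 660 and a rate of 4.89%. Such intervals cover counting error only.

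**Figure D2:**
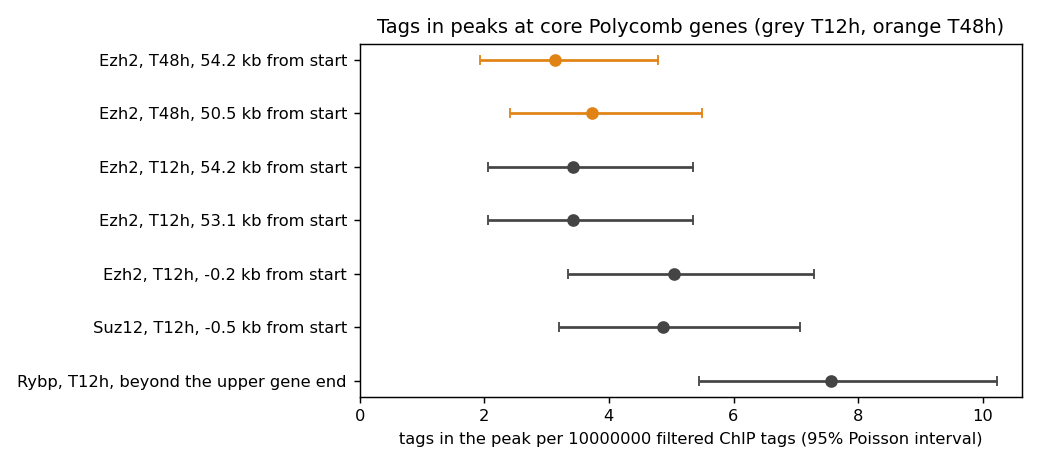
Tags in each peak at a core Polycomb gene per 10000000 filtered ChIP tags, with 95% Poisson intervals for counting error. Grey points are T12h and orange points T48h. Labels give the summit's distance from the RefSeq start, except for Rybp, whose label reads beyond the upper gene end. Rybp is highest at 7.56 (5.45 to 10.2), and the overlapping Ezh2 peaks of both times stand at 3.42 and 3.13. Tags are not divided by peak width, and the Rybp peak is the widest shown, at 429 bp.

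The Ezh2 start-site peak held 5.04 tags per 10000000 (3.35 to 7.29), Suz12 4.86 (3.20 to 7.07) and Rybp 7.56 (5.45 to 10.2), all at T12h. Their intervals overlap one another. These values are not divided by peak width. Per kb of peak, the Ezh2 start-site peak held 107 tags, Rybp 97.9 and Suz12 94.4. T48h values cannot be set beside them, because a peak list gives no tag number where no peak was found. The T48h library was the deeper, with 67116740 filtered ChIP tags against 55539917 at T12h, and its list the shorter. The smallest peaks of the lists held 12 and 13 tags.

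Several peaks in 1 gene were rare in both lists. The limits used here, 3 peaks at T12h and 2 at T48h, are the counts of Ezh2 itself. Its place in these groups was thus fixed in advance, and gene length was not matched. At T12h, 3 protein-coding genes (0.0137%) held 3 or more, namely Ezh2, Myod1 and Gm26650. At T48h, 18 (0.0822%) held 2 or more, Ezh2 among them. A peak by the rule at both times was found for 236 protein-coding genes (1.08%), and 2 or more at each time for 7 of them (0.0320%), which were Ezh2, Prrc2b, Zfp993, Myod1, Esrrb, Gm32966 and Rpl36.

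In each pair of paralogs at most 1 gene had a peak. At background shares of 4.25% at T12h and 1.69% at T48h, little can be read from that. Ezh1, the catalytic paralog of Ezh2, had its nearest T12h summit 17.1 kb away (fold 6.18) and its nearest T48h summit 216 kb away. Yaf2, the paralog of Rybp, had none closer than 2365 kb at T12h and 417 kb at T48h. The ligase genes Ring1 and Rnf2 both lacked a peak: for Ring1 the nearest summits were 43.2 kb and 65.3 kb away, and for Rnf2 4865 kb and 1076 kb. Eed, the reader subunit, was 550.3 kb from a T12h summit and 6339 kb from a T48h summit. No member had its nearest summit between 1 kb and 17.1 kb at T12h, so the distance limit separated none by a small margin, Suz12 being the outermost inside it at 523 bp.

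The 1 Mb window of chromosome 6 from 47 to 48 Mb, where Ezh2 lies, held 23 T12h peaks, and no other 1 Mb window held as many; the next held 17 and the median window with a peak 1. At T48h it held 4, and 7 other windows held more, up to 8. Ezh2 accounted for 3 of the 23. Of the other 20, 17 had a fold under 5 and lay upstream of Ezh2, in a stretch of 124 kb that begins 56.9 kb from the gene (chr6:47652148-47775793). A peak of that stretch overlaps Rn4.5s, a gene of the small 4.5S RNA, a family known in mouse for tandemly repeated copies. The summit of that peak lies in Gm40369. Of the 17 peaks, 11 overlapped an annotated gene, among them predicted genes and lncRNAs such as Gm40369, Gm40367, Gm36327 and Gm52861, and 6 overlapped none.

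The peaks of that stretch were wider than those of Ezh2. Their width had a median of 4197 bp, and 10 of them were 4.19 to 5.46 kb wide, out of 14 peaks of at least 4 kb in the whole T12h list. Where 2 such peaks followed each other directly, which happened 6 times, their starts were 4.21 to 4.37 kb apart and the gaps 19 to 95 bp. The 3 Ezh2 peaks were 167 to 261 bp wide. Folds ran from 3.24 to 4.68 in the stretch and from 7.8 to 9.92 in Ezh2, a gap set by the choice of peaks with a fold under 5. The 17 peaks made up 8.96% of the length and 11.3% of the tags of all T12h peaks.

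**Figure D3:**
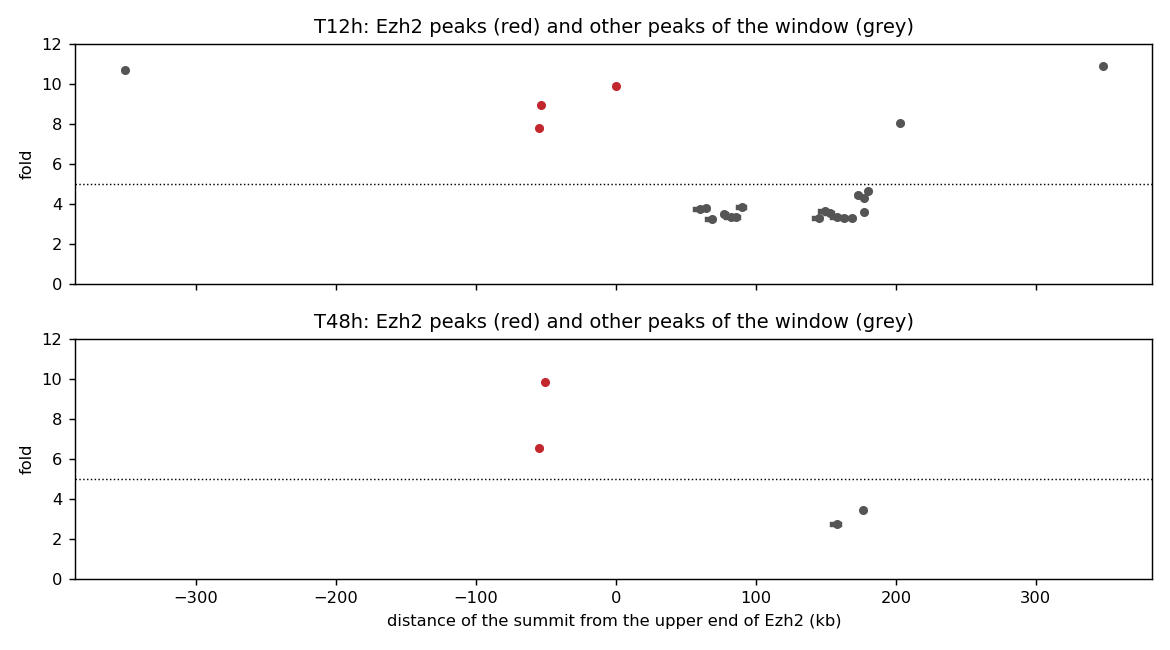
Fold of each peak on chromosome 6 between 47 and 48 Mb against its distance from the upper end of Ezh2 in kb, T12h above and T48h below; bars span the peak's width, red marks Ezh2 and the dotted line a fold of 5. At T12h the 17 low peaks form a stretch that begins 56.9 kb from Ezh2, and at T48h 2 of the 4 peaks lie in Ezh2.

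Local tag density was higher in the stretch than in the Ezh2 peaks. It was 79.5 to 114 tags per kb in the Ezh2 peaks and 145 to 231 in the 17 peaks of the stretch, and the T12h peaks outside the window had a median of 100.1. Tags per kb divided by the fold, a measure that is high where MACS took a high local background, was 10.2 to 12.7 in the Ezh2 peaks, against a median of 13.1 outside the window. In the stretch it was 31.0 to 67.3 with a median of 59.3, a difference that the choice by fold partly builds in. The 146 outside peaks with a fold under 5 ran from 16.0 to 99.2 with a median of 29.2. The 35 of these at least 1 kb wide ran from 25.9 to 99.2 with a median of 37.5. Both ranges hold all values of the stretch, but both medians lie below that of the stretch. The part of local density in the number of peaks of the stretch was not tested.

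**Figure D4:**
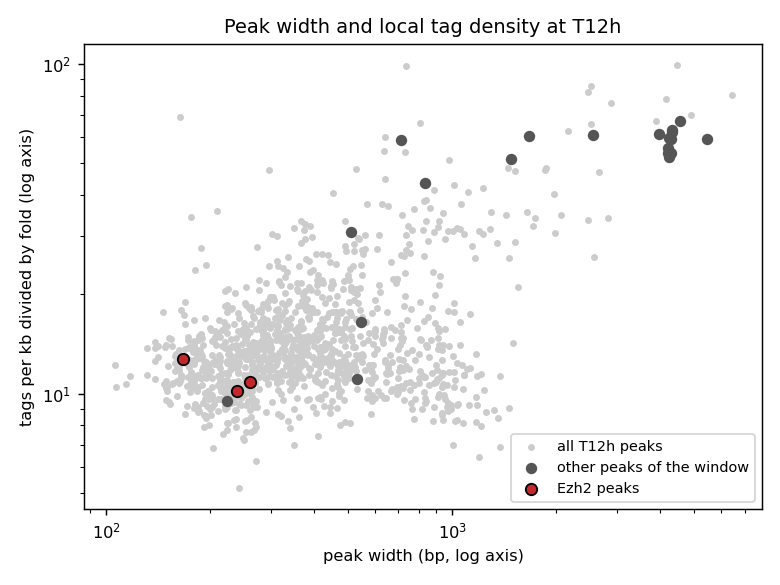
Tags per kb divided by fold against peak width at T12h, both axes logarithmic, for all peaks (light grey), other peaks of the chromosome 6 window (dark grey) and Ezh2 peaks (red). The Ezh2 peaks lie within the main cloud at 10.2 to 12.7, and the low-fold peaks of the window lie at 31.0 to 67.3, where other wide peaks of the list also lie.

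Outside that stretch the window held 3 more T12h peaks, whose folds were near those of Ezh2. These lay inside Cntnap2, a neural adhesion gene (fold 10.71, 96 tags in 545 bp), inside Pdia4, an endoplasmic reticulum chaperone gene (8.03, 17 tags in 223 bp), and 21 bp from an end of the zinc finger locus Zfp783 (10.91, 64 tags in 530 bp). At T48h the pair of window peaks outside Ezh2 overlapped peaks of the low-fold stretch, with folds of 2.74 and 3.45, below those of Ezh2 at that time.

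Beyond the core, 48 further Polycomb and PR-DUB genes were examined, and 7 (14.6%) had a peak at T12h and 0 at T48h, against 4.25% and 1.69% of protein-coding genes. These background shares were not matched for gene length. Of 19 genes of variant PRC1 complexes, 4 had a T12h peak. E2f6, which encodes the DNA-binding repressor of the complex with MGA, had a peak of 97 tags (fold 12.97, score 391.54, rank 130), with its summit 217 bp downstream of its RefSeq start. Mga had 2 peaks, 1 of 154 tags (fold 11.55, score 596.05, rank 101) with its summit 733 bp inside the lower end of the gene and 1 of 51 tags (7.03) at 299 bp downstream of a RefSeq start. Tfdp1, the dimer partner of E2F proteins, had 41 tags (4.55) at -493 bp. Auts2, a gene of 1106 kb, had 20 tags (9.14) deep inside the gene. E2f6 and the stronger Mga peak ranked above every peak of the 8 core genes, while L3mbtl2, Pcgf6, Max and Cbx3, which encode other subunits of that complex, had no peak, nor had Wdr5 itself.

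Each remaining Polycomb or PR-DUB list held a single gene with a T12h peak. The shares were 10% of PRC2 accessory, 9.09% of canonical PRC1 and 12.5% of PR-DUB genes, against 4.25% of protein-coding genes. With lists this small, these shares are a description. Among 10 PRC2 accessory genes it was Aebp2, which encodes a zinc finger subunit (21 tags, fold 8.85, summit 738 bp downstream of the start). Among 11 canonical PRC1 genes it was Cbx6, which encodes a chromodomain subunit (37 tags, fold 10.24, summit 317 bp downstream of the start, at an end it shares with Npcd). Among 8 PR-DUB genes it was Bap1, the H2A deubiquitinase gene (28 tags, fold 7.14), whose summit lay 10 bp outside the gene and 2 bp from an end of Phf7. None of the 16 COMPASS and MLL genes, which encode the complexes WDR5 is best known for, had a peak at either time, and at background shares of 4.25% and 1.69% little can be read from that.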

How the data were processed

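Anti-HA ChIP-seq was made at each of 2 rescue times, with 1 peak list per ChIP library. MACS 1.4.2 was run on each ChIP library with 1 control library, at a p cutoff of 1e-05 and 1 tag kept per position, per the file headers. MACS estimated a fragment length of 56 and 57 bp, close to the tag length of 50 and 49 bp, per the file headers, which affects peak widths and summits. The submitters' processing notes name mm10, Bowtie2, SAMtools 1.5, HOMER 4.9.1 and deepTools.

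The tag count of a peak, as deposited, is a whole number and not normalised. Scores were deposited as -10 times the log10 of the p-value. The deposited fold is a ratio to the local background. False discovery rates were deposited in percent. All are the authors' own and were used to describe peaks within a list.

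The summit, start + summit offset - 1, was assigned to RefSeq genes of GRCm38.p6 with Python 3.11.15, pandas 2.3.3, numpy 2.4.6 and scipy 1.17.1. Gene assignment was tested on simulated data. Peaks were shared at an overlap of at least 1 bp. The text names all members, every listed gene with a peak and genes at peaks of the chromosome 6 window; the genes with several peaks were named after their values were seen. Members, gene lists and motifs were chosen with earlier results of these data known. No test was run, since each rescue time had 1 library. Read-level data and input libraries were not analysed here.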

Additional observations from a re-analysis of the deposited data

How the results depend on the processing

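Of 37 recomputed counts, 26 stayed within 1.5 times their value and 11 moved. Counting only summits inside a gene left 1 core gene and 3 core peaks at T12h, since the Suz12 and Rybp summits lie outside their genes. A score of at least 100 left 2 core peaks and 3 other Polycomb genes at T12h, and at T48h 0 core genes, 0 core peaks and 0 peaks of the chromosome 6 window. A false discovery rate of at most 5% left 1 core peak and 1 window peak at T48h, where the median rate of all peaks was 9.625%. Taking only the middle part of the chromosome 6 window, which contains Ezh2, gave 13 peaks at T12h and 2 at T48h. The overlap of the single Ezh2 peak with T48h held under both other definitions of sharing. No paired analysis was possible because there was 1 library per group. With 19 to 42 tags in a core peak, counting error alone is wide.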
